A study of Mus musculus with 12 samples.

Results

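The 10 genes described here encode the core transcription factors of the heart: the zinc finger proteins Gata4, Gata5 and Gata6, the homeobox factor Nkx2-5, the T-box factors Tbx5 and Tbx20, the basic helix-loop-helix factors Hand1 and Hand2, the MADS-box factor Srf and its coactivator Myocd (myocardin). They were taken by name from a table of 55416 genes, and all 10 were among the 21799 genes with a mean normalised read count of at least 1. Gata4, Nkx2-5 and Tbx5 bind neighbouring sites in the control regions of heart genes and act together on genes of contraction and of the natriuretic peptides. Srf binds the CArG box and takes either of 2 kinds of partner: the myocardin family, for genes of the contractile cytoskeleton, or the ternary complex factors, for immediate early growth genes. In the heart muscle cell this network is known to be drawn on again during hypertrophic growth, when the cell enlarges without dividing.

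The cells were neonatal mouse cardiomyocytes in culture, and their polyadenylated RNA gave 12 sequencing libraries in 4 groups of 3. Cells received PBS or the alpha1-adrenergic agonist phenylephrine (PE) for 24 hours, each with a negative-control GapmeR or a GapmeR against lincRNA-p21. A GapmeR is an antisense oligonucleotide through which RNase H cuts the RNA it pairs with, so all 4 groups carried an oligonucleotide and none was left without one. Below, control stands for the negative-control GapmeR and knockdown for the lincRNA-p21 GapmeR. Mouse strain, age beyond neonatal and the number of cultures are not stated in the labels, and replicates are not said to come from different animals or cultures. The p-values therefore measure only the spread between these libraries, which may be technical.

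Libraries held 21325485 to 22139681 reads in genes. The knockdown check gave a log2 change of -2.10 ± 0.30 for Trp53cor1, the lincRNA-p21 gene, in PBS and -2.03 ± 0.30 in PE (limma, adjusted p = 2.0e-04 and 9.2e-05), where the error of a log2 change is the limma standard error here and throughout. Cardiomyocyte markers were high in every library: the summed normalised read count of 7 of them (among them Tnnt2, Actn2 and Myh6) ran from 463028 to 1080582. Markers of other heart cells were also present. The summed level of 10 fibroblast markers was 74694 to 80550 in PBS control and 43760 to 47626 in PE control, and that of 10 endothelial markers 2375 to 2606 and 6089 to 6604. In bulk RNA, fewer cells of a type and less RNA per cell cannot be told apart. In 3 groups 1 library stood farther than the others from its group, by the median absolute log2 distance over 12113 genes: PBS knockdown replicate 2 (0.258), PE knockdown replicate 1 (0.174) and PBS control replicate 2 (0.158). PBS knockdown replicate 1 was at 0.182 and the other 8 libraries at 0.132 or less. Counts of members and lists that moved by over 1.5 times without these 3 distant libraries are given both ways.

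Per length, Nkx2-5 and Gata4 were the highest of the 10 factors and Gata5 and Hand1 the lowest. Levels per length are TPM, reads per kilobase of merged exons scaled to the same total in every library. In PBS control cells Nkx2-5 stood at 541 ± 16.0 TPM (mean ± SD, n = 3 here and throughout) and Gata4 at 410 ± 18.6 TPM. Srf followed at 206 ± 4.37 TPM. Tbx20 (127 ± 9.03 TPM), Hand2 (117 ± 3.18 TPM) and Gata6 (116 ± 3.46 TPM) formed a middle group in which neighbours in the order overlapped between libraries. Tbx5 was at 93.4 ± 1.89 TPM and Myocd at 43.0 ± 0.71 TPM, each apart from its neighbours. Hand1 and Gata5 were at 8.71 ± 0.90 and 4.55 ± 0.70 TPM, so that Gata4 exceeded Gata5, its paralog of the endocardium and early heart field, by 91.5 ± 15.3 times. Hand2 exceeded Hand1, a factor of the left ventricle and outer heart curvature, by 13.6 ± 1.16 times.

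The order of the members hardly moved with treatment. With PE, Myocd passed Tbx5, at 73.6 ± 7.56 against 72.4 ± 6.77 TPM in control cells and 69.0 ± 7.11 against 65.8 ± 8.83 TPM in knockdown cells, but the libraries of this pair overlapped in both groups. In PBS knockdown cells, Hand2 stood above Tbx20 (157 ± 37.5 and 148 ± 11.8 TPM), again with overlapping libraries. In that group the libraries of Nkx2-5 (lowest 523 TPM) and Gata4 (highest 559 TPM) overlapped as well. So did those of Srf and Hand2, and those of Tbx20 and Gata6. With the longest transcript as the length, Gata6 was at 157 ± 3.49 TPM and above Tbx20 and Hand2 in PBS control cells, so the order within the middle group depends on the exons counted.

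**Figure D1:**
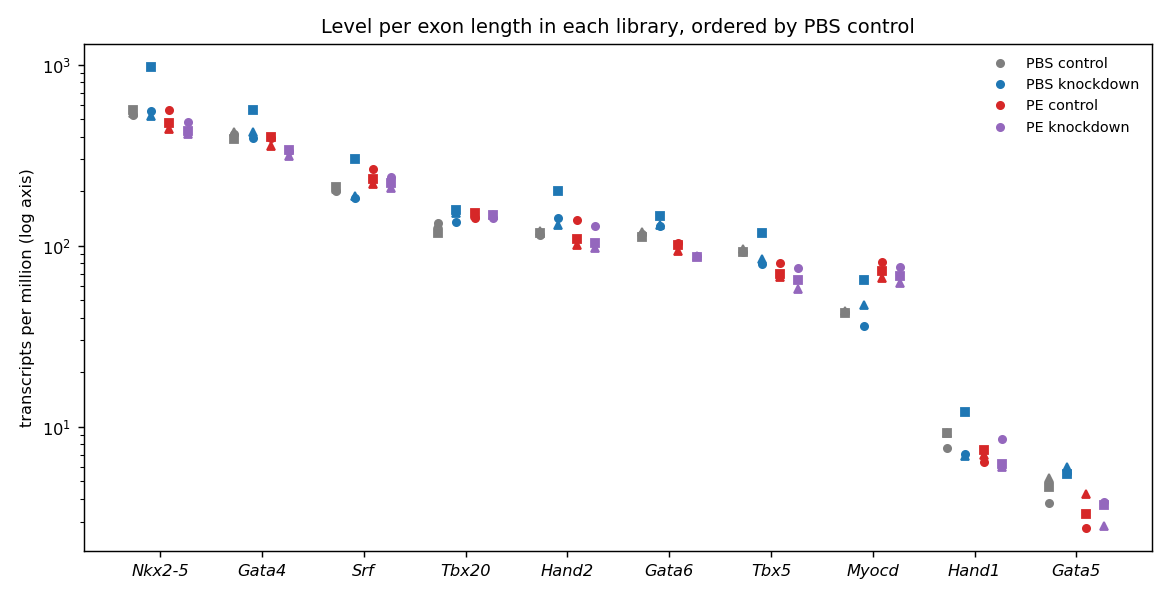
Level per exon length of the 10 factors in each of the 12 libraries, in TPM on a log axis; colours are the 4 groups, and marker shapes (circle, square, triangle) are replicates 1, 2 and 3. Nkx2-5 and Gata4 sit at the top, Hand1 and Gata5 far below the others, and the Myocd libraries in PE control (66.4 to 81.4 TPM) lie above those in PBS control (42.3 to 43.7 TPM).

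The first comparison asked which of these factors respond to 24 hours of PE in control cells. Myocd rose 1.92-fold and Tbx20 1.30-fold, and the other 8 members did not pass the test. This is 2 of 10 called, both higher, where 25.4% of all genes tested were called: 12.6% rose and 12.8% fell. Calls are at an adjusted p of at most 0.05 (limma, Benjamini-Hochberg over 21799 genes). The median log2 change of the 10 was 0.05, against -0.005 over all genes tested.

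Myocd (ENSMUSG00000020542, GRCm38 chromosome 11, 65176561 to 65269989, minus strand) encodes the coactivator that binds Srf and turns on smooth and cardiac muscle genes. Its normalised read count was 1759, 1991 and 1820 in the 3 PBS control libraries and 3910, 3462 and 3336 in the 3 PE control libraries. The lowest PE library was well above the highest PBS library. The log2 change was 0.94 ± 0.14 (limma, adjusted p = 6.1e-05), and it was called in all 23 alternative fits, at 0.78 to 0.99.

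Srf (ENSMUSG00000015605, chromosome 17, 46548329 to 46556175, minus strand), the DNA-binding partner of myocardin, had normalised read counts of 3722, 4461 and 3840 in PBS control and 5747, 4992 and 4936 in PE control. The groups did not overlap. They did not overlap for 3 of the 10 members (Srf, Myocd and Tbx20), nor for 41.7% of all genes tested. The log2 change of Srf was 0.38 ± 0.14 and narrowly missed the threshold (limma, adjusted p = 0.053), with a 95% interval of 0.09 to 0.68. It passed in 8 of 23 alternative fits, among them DESeq2 (0.38, adjusted p = 0.045) and limma without the 3 distant libraries (0.46, adjusted p = 2.8e-05) or with the GC trend of each library removed (0.38, adjusted p = 0.0014). Single libraries also decided it: limma gave an adjusted p of 0.040 without PBS control replicate 2 (0.46), 0.040 and 0.0052 when PBS knockdown replicate 1 or 2 was left out, and 0.042 when PE knockdown replicate 1 was. The knockdown libraries enter this comparison only through the spread, and leaving them out does not move the estimate. The ratio of Srf to Myocd per length, which no scaling of the libraries can move, was 4.70, 4.98 and 4.69 in PBS control and 3.26, 3.20 and 3.29 in PE control. Both transcripts were higher in every PE control library than in any PBS control library, and the coactivator moved further than its partner.

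Srf is itself known as a gene with CArG boxes in its promoter, and its window in RefSeq is shown with that of Tbx20, the other member with a window whose groups did not overlap. RefSeq windows of 250 bases before to 50 after the gene's start were at hand for 5 members: Srf, Tbx20, Nkx2-5, Hand2 and Gata5. The 250 bases before the start are given 5′ to 3′ on the minus strand of GRCm38.p6, with CArG boxes in capitals.
Srf, chr17:46556163-46556412: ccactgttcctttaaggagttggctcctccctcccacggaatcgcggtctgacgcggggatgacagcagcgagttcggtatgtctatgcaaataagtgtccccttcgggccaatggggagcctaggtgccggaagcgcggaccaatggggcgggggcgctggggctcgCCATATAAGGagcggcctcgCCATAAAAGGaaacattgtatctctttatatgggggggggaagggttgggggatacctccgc
Tbx20, chr9:24774304-24774553: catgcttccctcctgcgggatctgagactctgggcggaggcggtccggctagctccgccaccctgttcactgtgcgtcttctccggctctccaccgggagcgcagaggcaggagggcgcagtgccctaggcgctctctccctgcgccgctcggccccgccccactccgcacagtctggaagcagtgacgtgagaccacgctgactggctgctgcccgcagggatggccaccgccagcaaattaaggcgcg
The Srf window held 2 CArG boxes, CCATATAAGG and CCATAAAAGG, whose first bases lie at -82 and -62 from the start. A CArG box was found in 1.63% of 32851 such windows. The Tbx20 window held none. On both strands, the letters AGATAA of GATA factors were also searched, and 11.2% of all windows held them. The Nkx2-5 motif TNAAGTG was in 11.5% of windows. The T-box motif GGTGTG was in 19.0%. The Hand motif CATCTG was in 17.2%. The Hand2 window held 1 match to the GATA motif and 1 to the Hand motif. The windows of Tbx20, Nkx2-5 and Gata5 held none of the 5 motifs, and that of Srf none but the CArG boxes. In the 200 bases before the start alone, 1.18% of windows held a CArG box, and the Hand motif of Hand2 fell outside. A match is a run of letters and not a measured site.

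Tbx20 (ENSMUSG00000031965, chromosome 9, 24718138 to 24774303, minus strand) encodes a T-box factor needed to build and keep the working myocardium. It had 10189, 10298 and 10285 normalised reads in PBS control and 12747, 13431 and 13828 in PE control. The PBS control libraries lay within a narrow band, and every PE library was above it. The log2 change was 0.38 ± 0.09 (limma, adjusted p = 0.0050). Rescaling every library to the same total, which lowers the median of all genes to -0.15, left 0.22 and ended the call (limma, adjusted p = 0.094).

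Tbx5, the T-box partner of Gata4 and Nkx2-5 and the gene of Holt-Oram syndrome, had 2761, 3159 and 2899 normalised reads in PBS control and 2797, 2415 and 2456 in PE control. PE control replicate 1 lay inside the PBS range, and the log2 change of -0.20 ± 0.13 was not called (limma, adjusted p = 0.30). After rescaling it was called lower (-0.36, limma adjusted p = 0.035). The ratio of Tbx20 to Tbx5 per length was 1.44, 1.27 and 1.38 in PBS control and 1.78, 2.17 and 2.19 in PE control, without overlap.

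The GATA, Nkx2-5 and Hand genes did not pass the test with PE in control cells. Gata4, the GATA factor of the adult hypertrophic response, had 10364, 11127 and 10737 normalised reads in PBS control and 11525, 11453 and 10784 in PE control. Those ranges overlapped, and the log2 change of 0.07 ± 0.11 had a 95% interval of -0.16 to 0.30 (limma, adjusted p = 0.72). Its paralog Gata6 was at 4838, 5342 and 5009 against 5014, 4840 and 4749, a log2 change of -0.06 ± 0.09 with an interval of -0.24 to 0.13 (limma, adjusted p = 0.71). Nkx2-5, which marks the cardiac lineage from its start, changed by 0.03 ± 0.16 (interval -0.31 to 0.37) and Hand2 by 0.13 ± 0.15 (interval -0.18 to 0.44). The lowly expressed Gata5 (-0.24 ± 0.20) and Hand1 (-0.15 ± 0.21) rested on 63 to 135 and 85 to 157 reads per library, and their intervals reached from -0.66 to 0.19 and from -0.59 to 0.29. The intervals of Hand2, Gata5 and Hand1 include, in 1 direction, a log2 change as large as that of Tbx20.

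**Figure D2:**
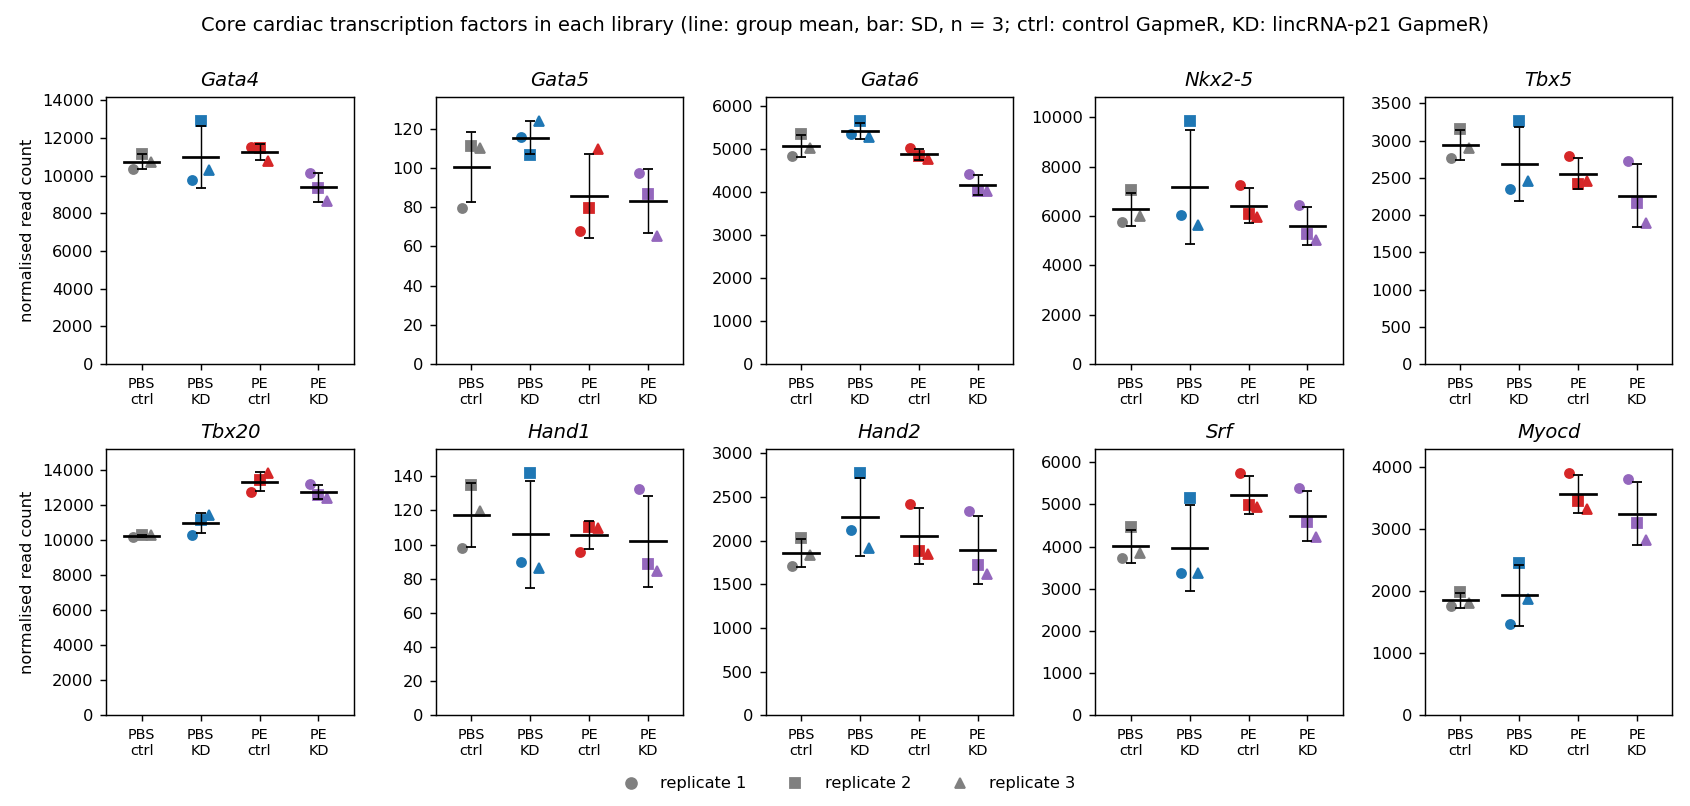
Normalised read count of each factor in the 12 libraries, from 0, by group (ctrl, control GapmeR; KD, lincRNA-p21 GapmeR); points are libraries, lines are group means and bars are SD of 3 libraries. The Myocd libraries in PE (2834 to 3910) all lie above those in PBS (1480 to 2451), while PBS knockdown replicate 2 is the highest library of its group for 8 of the 10 genes.

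In knockdown cells PE again raised Myocd, and Gata6 fell. The count was 2 of 10 called, 1 higher and 1 lower, where 27.4% of all genes tested were called, 13.4% higher and 14.0% lower. Myocd had 1480, 2451 and 1880 normalised reads in PBS knockdown and 3817, 3098 and 2834 in PE knockdown, without overlap. Its log2 change was 0.77 ± 0.14 (limma, adjusted p = 4.7e-04), and it was called in all 23 alternative fits, at 0.59 to 0.95. The Srf to Myocd ratio per length was at most 5.06 in PBS knockdown, with every library above those of PE knockdown (3.13 to 3.31).

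Gata6 (ENSMUSG00000005836, chromosome 18, 11052064 to 11085635, plus strand), a GATA factor of the myocardium and outflow tract, had 5336, 5632 and 5277 normalised reads in PBS knockdown and 4414, 4013 and 4023 in PE knockdown. Every PE library was lower than every PBS library. The groups did not overlap for 4 of 10 members (Gata6, Myocd, Tbx20 and Gata5), where 38.7% of all genes did not. The fall was 0.766-fold, a log2 change of -0.38 ± 0.09 (limma, adjusted p = 0.0026), called in all 23 alternative fits at -0.53 to -0.30. The noncoding gene 1010001N08Rik shares 93 exon bases with Gata6 on the other strand, with a mean of 229 normalised reads against 4874, and it fell too (-0.45 ± 0.13, limma adjusted p = 0.012). The sources used here do not give whether counting used strand, and reads over the shared bases may not have been told apart.

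Tbx20 had 10309, 11159 and 11403 normalised reads in PBS knockdown and 13204, 12577 and 12422 in PE knockdown, without overlap. Its log2 change of 0.22 ± 0.09 was not called (limma, adjusted p = 0.094), though it was with a filter of 1 CPM in 3 libraries (limma, adjusted p = 0.046) and by DESeq2 (adjusted p = 0.018). Srf had 3370, 5148 and 3386 against 5387, 4593 and 4228, and here the groups overlapped through PBS knockdown replicate 2. Its log2 change was 0.28 ± 0.14 (limma, adjusted p = 0.16), and 0.48 without that library (adjusted p = 0.0025). Gata5 had 116, 107 and 124 reads in PBS knockdown and 97.4, 86.7 and 65.5 in PE knockdown, which do not overlap, with a log2 change of -0.48 ± 0.20 (limma, adjusted p = 0.086). Gata4 (-0.22 ± 0.11), Nkx2-5 (-0.32 ± 0.16), Tbx5 (-0.25 ± 0.13), Hand2 (-0.26 ± 0.15) and Hand1 (-0.05 ± 0.21) were not called.

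This count of 2 depended on scaling and on single libraries. After rescaling to the same total, 1 member was called higher and 6 lower (Gata4, Gata5, Gata6, Nkx2-5, Tbx5 and Hand2), where 20.4% of all genes were called lower and the median of all genes moved to -0.125. Without the 3 distant libraries 5 were called: Myocd and Srf (0.38) higher, Gata6, Gata5 (-0.66) and Tbx5 (-0.25) lower, where 29.4% of all genes were called. Leaving out PE knockdown replicate 1 alone gave 4, with Tbx5 (-0.39) and Hand2 (-0.42) added (limma, adjusted p = 0.033 and 0.039), where 24.3% of all genes were called.

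**Figure D3:**
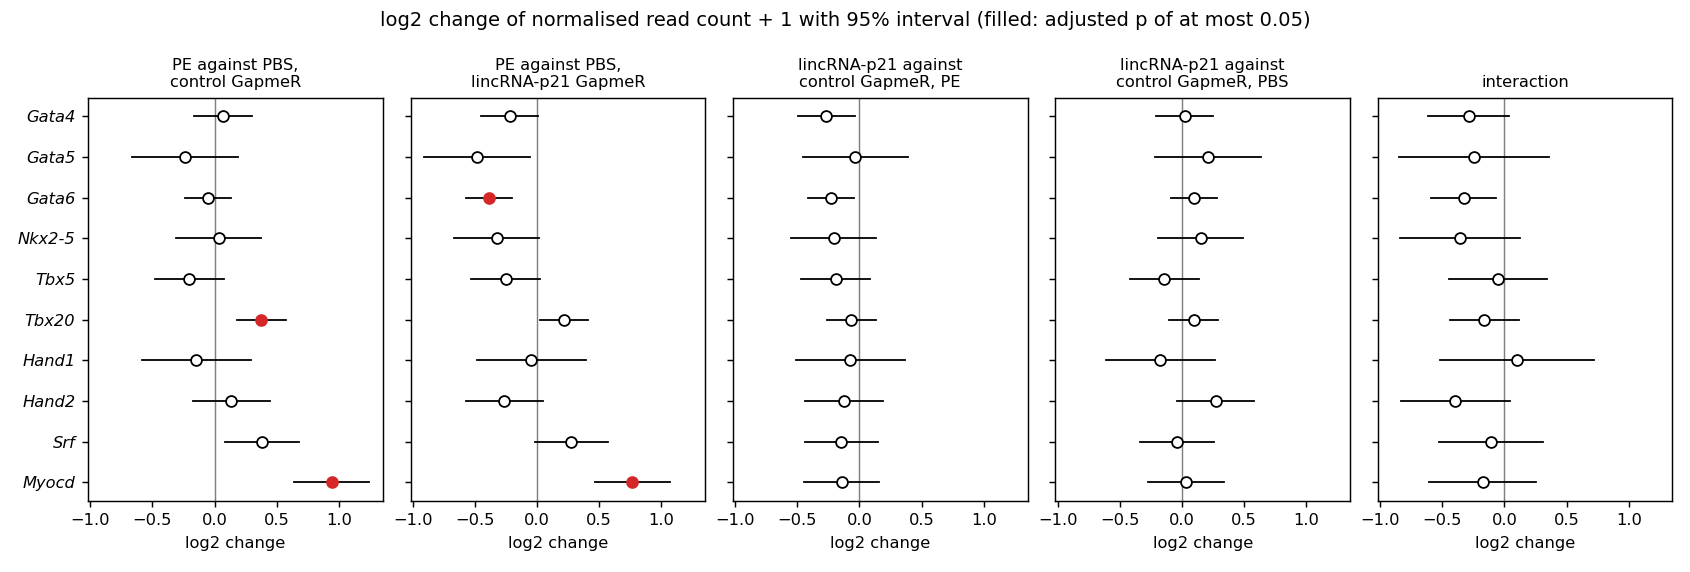
log2 change of each factor with its 95% interval in the 4 comparisons and the interaction (limma, log2 of the normalised read count plus 1); filled red points have an adjusted p of at most 0.05. Myocd is filled in both PE comparisons, Tbx20 in the first and Gata6 in the second, and every point of the knockdown comparison in PE lies left of 0 with none filled.

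With the knockdown in PE, none of the 10 factors was called, where 11.7% of all genes tested were called and 7.14% were called lower. Without adjustment 2 members had a limma p under 0.05 (Gata4 and Gata6), edgeR called 0, and DESeq2 called Gata6 alone (-0.23, adjusted p = 0.032), where it called 7.88% of all genes lower. Gata4 had 11525, 11453 and 10784 normalised reads in PE control and 10148, 9337 and 8634 in PE knockdown. Gata6 had 5014, 4840 and 4749 and then 4414, 4013 and 4023. For both genes every knockdown library was below every control library. These were the 2 of 10 members whose groups did not overlap, where 30.5% of all genes did not. The log2 changes were -0.27 ± 0.11 for Gata4 and -0.23 ± 0.09 for Gata6 (limma, adjusted p = 0.14 and 0.11). All 10 estimates were below 0, from -0.27 to -0.03 with a median of -0.14, while 48.6% of all genes lay below 0. The factors stood high or low together in some libraries, described below, so the 10 signs are not independent. Over the 23 alternative fits the highest estimates of Gata5 (0.16), Hand1 (0.05), Tbx20 (0.02) and Hand2 (0.002) were above 0. The other members stayed below 0 in all of them. After rescaling, the median of all genes went from 0.013 to 0.092 and that of the 10 factors to -0.06. The 95% intervals of the 10 ran from -0.55 to 0.39 at their extremes.

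PE knockdown replicate 1 was the highest library of its group for 10 of 10 factors, by a median of 0.348 on the log2 scale over the mean of the other libraries of the group. The same count over all genes was not made. With PE knockdown replicate 1 alone left out, 0 of 10 factors were called in this comparison, where 2217 of all genes were. With PBS control replicate 2 and PBS knockdown replicate 2 left out as well, 7 of 10 factors were called lower in PE knockdown cells. These were Gata4 (-0.33), Gata6 (-0.28), Nkx2-5 (-0.32), Tbx5 (-0.33), Hand2 (-0.29), Srf (-0.24) and Myocd (-0.27), with limma adjusted p of 0.0019 to 0.035. In that fit 12.1% of all genes were called lower, and the number of all genes called went from 2553 to 4664. The 3 libraries were picked for their distance from their groups, so leaving them out lowers the spread by itself. PE knockdown replicate 1 was the highest of its group for all 10 factors, so leaving it out also lowers all 10 estimates by itself. Their median went from -0.14 to -0.28. Without PBS knockdown replicate 2 alone, which enters this comparison only through the spread, Gata4 and Gata6 were called lower (limma, adjusted p = 0.035 and 0.044), where 9.35% of all genes were.

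In PBS the knockdown called none of the 10, and none had an unadjusted limma p under 0.05. edgeR and DESeq2 called 0 as well. The share of all genes called was 4.57%, and 3.21% were called lower. Estimates ran from -0.17 for Hand1 to 0.27 for Hand2, and the 95% intervals from -0.61 to 0.64. Tbx20 was the member whose libraries did not overlap, at 10309 to 11403 in the knockdown and 10189 to 10298 in the control, with a log2 change of 0.09 ± 0.09 (limma, adjusted p = 0.67), where 22.0% of all genes did not overlap. Myocd changed by 0.03 ± 0.14 (interval -0.27 to 0.34) and Gata4 by 0.02 ± 0.11 (interval -0.21 to 0.25). Hand2 shares 461 exon bases with the noncoding Hand2os1 on the other strand (mean 665 against 2019 normalised reads), which was not called in any of the 5 comparisons, and Gata5 shares 258 with Gata5os (mean 1.83).

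The interaction asks whether the PE response itself differed between control and knockdown cells. No member was called, where 0.055% of all genes were (12 genes), and edgeR and DESeq2 also called 0 of the 10. Gata6 alone had an unadjusted limma p under 0.05, with a difference of log2 changes of -0.33 ± 0.13 (limma, adjusted p = 0.41). So Gata6, called with PE in knockdown cells, and Tbx20, called in control cells, were not shown to respond differently in the other cells. For Myocd the difference was -0.18 ± 0.20, with an interval of -0.60 to 0.25. The test is weak for small differences. On simulated data it found 19% of 1.5-fold differences for the interaction, against 58% to 63% of 1.5-fold changes for the other 4 comparisons. There 100 genes of each fold size were changed among 21799, drawn from genes with a mean of at least 50, with independent spread between libraries. The real data differ in these settings, so the shares may not hold for them.

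In some libraries most of the factors stood high or low together. PBS control replicate 2 was the highest of its group for 10 of 10 factors (median 0.175), and PBS knockdown replicate 2 for 8 of 10 (median 0.451). PBS control replicate 1 was the lowest of its group for 10 of 10 and PE knockdown replicate 3 for 9 of 10. Such counts were not made over all genes, so they are not shown to be particular to the factors. Mitochondrial genes held 10.7% of reads in PBS control replicate 2 and 10.04% in PE knockdown replicate 1, the highest shares of the 12 libraries, and 4.33% in PBS knockdown replicate 2, the lowest. The part of mitochondrial reads in these differences between libraries was not tested. In PBS knockdown replicate 2 the spread followed the gene: it stood 0.75 above the others for Nkx2-5, 0.68 for Hand1 and 0.61 for Srf, but 0.09 for Gata6 and 0.04 for Tbx20. Deviations from each gene's mean over all 12 libraries, not over the group, were also compared by GC content. In this library the median of the top quartile less that of the bottom quartile, the GC difference, was 0.64 on the log2 scale. The other 11 libraries lay between -0.21 and 0.11. The transcripts of Nkx2-5 and Srf are at the 99.9th and 99.6th percentiles of GC content, and that of Tbx20 at the 13.4th. Of the other members, Gata5, at the 86.7th percentile, stood at -0.17 in this library, Gata6 at the 79.2nd at 0.09, and Myocd at the 51.1st at 0.56. With the GC trend of each library removed, 3 factors were called higher with PE in control cells (Srf added, 13.9% of all genes higher), 3 were called with PE in knockdown cells (Myocd and Srf higher, Srf at 0.50, and Gata6 lower, 30.9% of all genes called), and Gata4 was called lower with the knockdown in PE (-0.26, limma adjusted p = 0.032), where 8.58% of all genes were then called lower. PE knockdown replicate 1, the highest of its group for all 10 factors, had a GC difference of -0.02. Replicates 2 and 3 of its group had 0.005 and -0.11. The part of GC content in the spread between libraries was not tested.

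**Figure D4:**
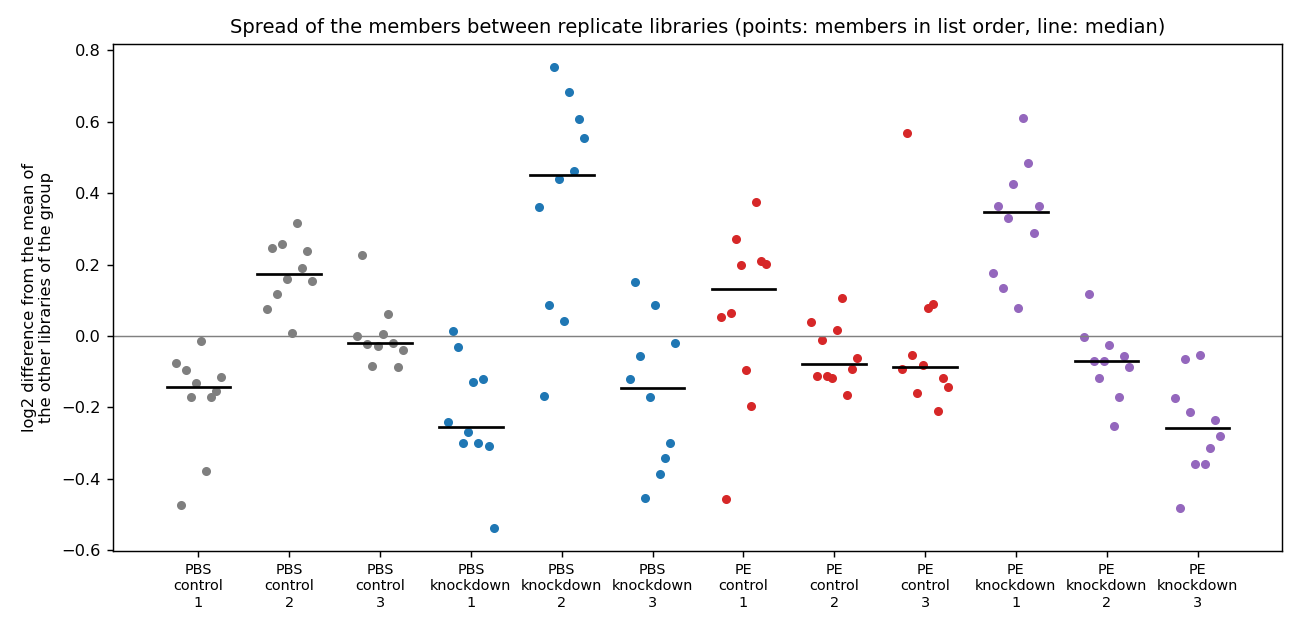
Difference of each library from the mean of the other libraries of its group, on the log2 scale; each point is one of the 10 factors in list order, and the line is their median. PBS knockdown replicate 2 (median 0.451) and PE knockdown replicate 1 (median 0.348) lie highest, the first with a wide spread between genes and the second with all points above 0.

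Genes that act with or under the 10 factors were described from 5 lists of related genes, by counts and medians beside those of all genes. Comparisons that share a group of libraries are not independent of each other. The lists share some genes with the markers of cell types: 6 of the cardiac targets are cardiomyocyte markers, and 4 SRF targets (Acta2, Cnn1, Myh11 and Tagln) are smooth muscle markers. With PE in control cells, 14 of 20 SRF targets of the myocardin branch rose and 2 fell (median 0.69). Acta1, the skeletal alpha-actin, rose by 2.53 on the log2 scale, the actin-binding calponin Cnn1 by 2.32 and the alpha-actinin Actn1 by 1.67, while the smooth muscle myosin Myh11 fell by 1.52. Of 11 SRF targets of the ternary complex factor branch 10 rose and none fell (median 1.12), with Fos at 1.80, the matricellular Ccn1 at 1.67, Fosb at 1.65 and Junb at 1.34. Of all genes, 12.6% rose and 12.8% fell. The summed level of the 10 smooth muscle and pericyte markers moved as well, from between 31090 and 34730 to between 56424 and 58347, with 4 higher and 5 lower, and the part of other cell types in these counts was not tested.

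Of 27 cardiac target genes of Gata4, Nkx2-5 and Tbx5, 13 rose with PE and 5 fell (median 0.22). Nppb, the natriuretic peptide BNP, rose by 2.87, the adenosine receptor Adora1 by 1.54 and the growth factor Bmp10 by 1.46, while the natriuretic peptide protease Corin fell by 1.34. Of 24 cofactors 6 rose and 3 fell (median 0.17), or 2 and 7 after rescaling and 11 and 5 without the 3 distant libraries. The muscle LIM protein gene Csrp3 and the stress-responsive Ankrd1 rose by 1.09 and 1.05, and Fhl2 and the homeodomain-only protein Hopx fell by 0.78 and 0.72. Of 29 other cardiac transcription factors tested 4 rose and 6 fell (median -0.08). The forkhead factor Foxc2 rose by 2.01, the Hey repressors Heyl and Hey2 fell by 1.69 and 1.47, and the ventricular factor Irx4 fell by 1.18.

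In knockdown cells, where 13.4% of all genes rose and 14.0% fell, these lists gave 12 higher and 3 lower (myocardin branch), 7 and 0 (ternary complex factor branch), 10 and 6 (cardiac targets), 6 and 7 (cofactors) and 3 and 13 (other factors). After rescaling they were 10 and 4, 7 and 0, 7 and 8, 4 and 9, and 3 and 18 in the same order. Acta1 rose by 2.25, Cnn1 by 2.13 and Actn1 by 1.21, and Myh11 fell by 1.58. Fosb rose by 1.76, Ccn1 by 1.26, Fos by 1.15 and Junb by 0.90. Among cardiac targets Nppb rose by 2.75, Bmp10 by 1.65 and Adora1 by 1.38, and Corin fell by 1.48. Among cofactors Ankrd1 rose by 1.12, and Fhl2, Hopx and the GATA partner Zfpm2 fell by 1.09, 0.84 and 0.84. Among other factors Heyl, Hey2 and Irx4 fell by 2.01, 1.27 and 1.09, and Foxc2 rose by 1.34.

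**Figure D5:**
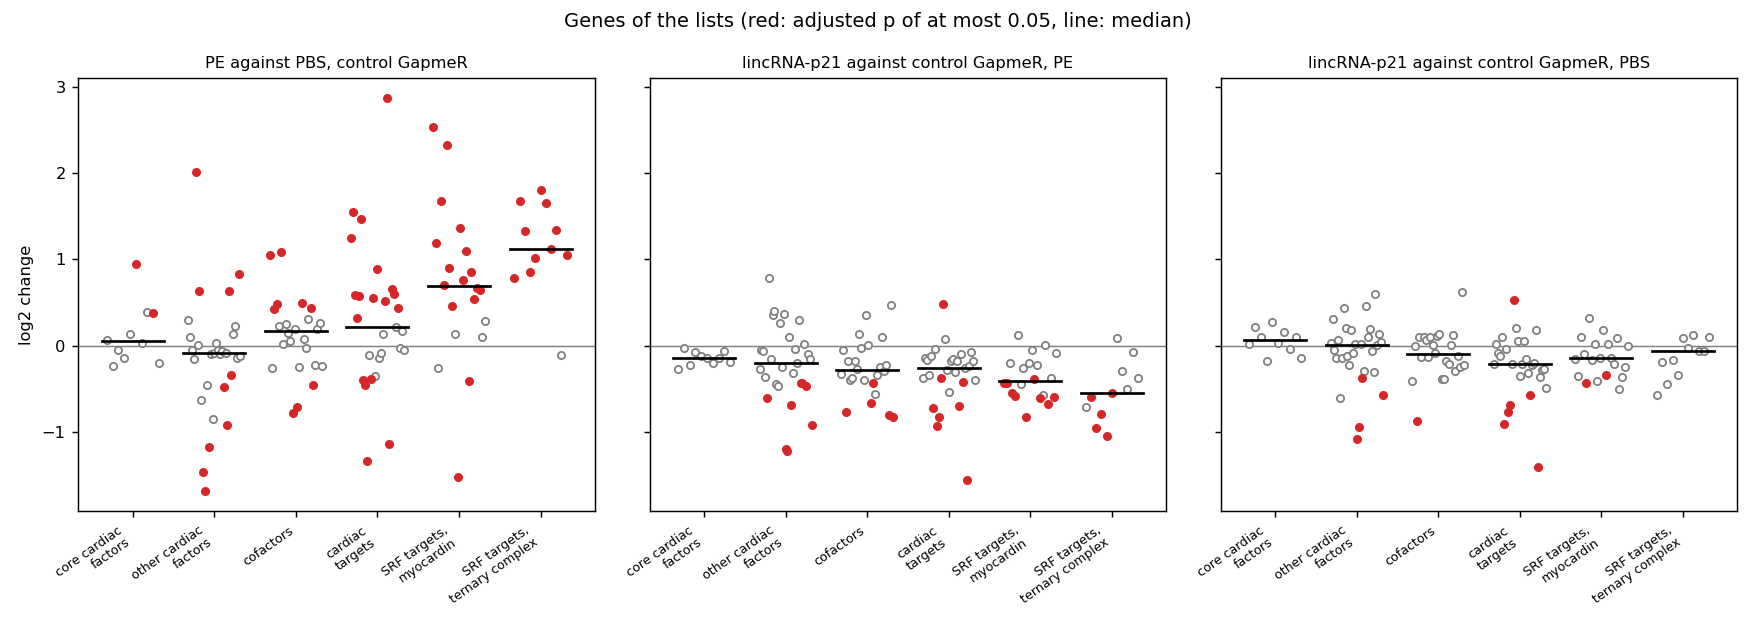
log2 change of every tested gene of the 10 factors and the 5 related lists in 3 comparisons (limma); red points have an adjusted p of at most 0.05, open points do not, and lines are list medians. With PE in control cells the 2 lists of SRF targets lie highest (medians 0.69 and 1.12), and with the knockdown in PE the called genes of these lists, with 1 exception among the cardiac targets, lie below 0.

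With the knockdown in PE the related lists held lower calls. The 10 factors held none, which is near the 7.14% of all genes called lower and does not set them apart. Without the 3 distant libraries 7 of the 10 factors were called lower. The counts lower were 9 of 20 for the myocardin branch (median -0.41), 5 of 11 for the ternary complex factor branch (-0.55), 7 of 27 for cardiac targets (-0.26), 5 of 24 for cofactors (-0.29) and 8 of 29 for other factors (-0.21), with 1 gene higher in all, the connexin Gja5 at 0.48. Over all genes tested the median was 0.013 and 7.14% were lower. Marker sums moved as well: from PE control to PE knockdown, the fibroblast markers went from 43760 to 47626 down to 35622 to 39685 and the smooth muscle and pericyte markers from 56424 to 58347 down to 40908 to 44365. Of each of these lists, 3 of 10 genes were called lower. The 7 cardiomyocyte markers summed to 792314 to 1080582 and then 630386 to 748724, with 1 called lower, and 8 epicardial markers to 7144 to 7753 and then 6154 to 6608, with 1 called lower. These 4 sums did not overlap between the groups, and their part in the list counts was not tested. Without the 3 distant libraries the counts lower of the related lists were 14, 7, 14, 16 and 15, with 1 cardiac target and 2 cofactors higher. The marker counts lower were then 5 of 10 (fibroblast), 6 of 10 (smooth muscle and pericyte), 5 of 7 (cardiomyocyte) and 3 of 8 (epicardial). Of all genes, 12.1% were called lower in that fit. Mef2c and Mef2a, the MADS-box factors of the myocyte, fell by 1.22 and 1.20, the Hippo partner Tead1 by 0.92 and Meis1 by 0.69. Zfpm2 fell by 0.83, the coactivator Yap1 by 0.81, the caveolar protein Cavin4 by 0.77 and Jarid2 by 0.67. The sodium-calcium exchanger Slc8a1 fell by 1.56, the muscarinic receptor Chrm2 by 0.94, Corin by 0.83 and Bmp10 by 0.72. Among SRF targets Lmod1, Tpm1, Smtn and Vcl fell by 0.83, 0.68, 0.61 and 0.60, and Egr3, Egr1, Egr2 and Ccn1 by 1.04, 0.96, 0.79 and 0.60.

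The knockdown in PBS gave 2 lower calls in the myocardin branch (Cald1 at -0.43 and Pdlim5 at -0.35), 5 lower and 1 higher among cardiac targets (Slc8a1 -1.41, Bmp10 -0.91, Chrm2 -0.77, Corin -0.68), 1 lower among cofactors (Cavin4 -0.88) and 4 lower among other factors (Mef2a -1.09, Mef2c -0.94, Tead1 -0.58, Meis1 -0.38). Of all genes tested, 4.57% were called there and 3.21% were lower. From PBS control to PBS knockdown the cardiomyocyte marker sum went from 570727 to 668847 down to 463028 to 505456. That of smooth muscle and pericyte markers went from 31090 to 34730 down to 26138 to 27631. The sum of 4 Schwann cell markers went from 96.1 to 126 down to 74.3 to 94.0. Epicardial markers went from 7202 to 7627 up to 7802 to 7851. The other marker sums overlapped. The part of these sums in the list counts was not tested. The 2 calls of the myocardin branch were lost with the replicate block and after rescaling, and 4 of its genes were called lower by DESeq2. Without the 3 distant libraries, 1859 of all genes were called. The lists then held 3 lower and 1 higher (myocardin branch), 1 lower (ternary complex factor branch), 7 lower and 1 higher (cardiac targets), 5 lower and 2 higher (cofactors) and 6 lower (other factors). With all 12 libraries the ternary complex factor branch had none called by limma. Its genes with the smallest p were Egr1 (-0.45 ± 0.17, adjusted p = 0.15) and Arc (-0.57 ± 0.27, adjusted p = 0.28). In the interaction, where limma called 0.055% of all genes, it called no gene of the 5 lists. DESeq2 called 2 cofactors and 1 other factor lower there (124 of all genes), and limma without the 3 distant libraries called 1 cofactor and 2 genes of the ternary complex factor branch lower (144 of all genes). Among the genes with the smallest p in each list were Zfpm2 (-0.60, limma adjusted p = 0.11) and Yap1 (-0.56), Tbx18 (-0.48) and Foxc2 (-0.68), Mybpc3 (-0.33), Actn1 (-0.46) and Smtn (-0.47), and Fos (-0.65) and Ccn1 (-0.41), the others with limma adjusted p of 0.18 to 0.65.

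The span of a gene on the chromosome moved with these falls. Among genes with a mean of at least 50, the median log2 change with the knockdown in PE was 0.05 for spans under 50 kb, -0.08 from 50 to 100 kb, -0.23 from 100 to 200 kb and -0.55 above 200 kb, and the share called lower was 4.99%, 15.4%, 30.2% and 65.3%. The 10 core factors span 3.65 kb (Hand2) to 93.4 kb (Myocd), all under 100 kb. Of the genes named above as falling in this comparison, Corin (204 kb), Tead1 (227 kb), Slc8a1 (365 kb) and Zfpm2 (450 kb) span over 200 kb. Between 100 and 200 kb are Vcl (104 kb), Meis1 (139 kb), Chrm2 (140 kb), Mef2a (142 kb), Mef2c (163 kb) and Jarid2 (192 kb). Yap1 spans 72.6 kb. Under 50 kb are Ccn1 (3.01 kb), Egr1 (5.16 kb), Egr3 (5.41 kb), Egr2 (6.71 kb), Bmp10 (8.68 kb), Cavin4 (9.99 kb), Smtn (23.1 kb), Tpm1 (26.8 kb) and Lmod1 (43.3 kb). Gja5, the gene called higher, spans 173 kb. The share called lower also rose with span for the knockdown in PBS, at 2.00%, 6.01%, 13.6% and 35.2% over the same ranges. With PE in knockdown cells it was 17.8%, 20.9%, 32.4% and 43.3%. With PE in control cells it was 15.8%, 17.1%, 23.3% and 26.8%. The part of gene span in the list counts was not tested.

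The genes most like each factor over the 12 libraries were taken from 12112 genes with a mean of at least 50, by Pearson's r of log2 values. All points share libraries, group differences and the spread between replicates, so these r values are descriptions. Myocd was closest to Acan (0.990), Jun (0.982) and Sik1 (0.982), and Srf to Eng (0.979), Trim8 (0.962) and Pnpla2 (0.961). Tbx20 was closest to Lrrc8c, Klf10 and Pirt (0.970, 0.970 and 0.969). Tbx5 was closest to Arhgap21 (0.975), Smarcc2 and Map4, Nkx2-5 to Crat (0.979), Fbrsl1 and Acd, and Gata4 to Sik3 (0.955), Tns1 and Ldb3. Gata6 was closest to Dennd5a (0.939), Ttc7 and Tmem108, and Hand2 to Triobp (0.941), Ccm2 and Zfp503. The low genes reached less, with Sox18 for Hand1 (0.927, then Vamp2 and Wbp2) and Ccdc77 for Gata5 (0.897, then Pttg1ip and Jkamp).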

How the data were processed

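The authors deposited 1 table of signal values, read counts per gene divided by 1 size factor per library. Reads were aligned with STAR to GRCm38.p6, handled with SAMtools and counted with featureCounts, per the submitters' processing notes. Tool versions, annotation and use of strand are not given in the sources used here. Dividing each column by its step gave whole reads for 100% of values (tolerance 0.001), and median-of-ratios factors recomputed from those reads matched the steps to within 9.2e-12. GENCODE M21 gave a symbol to 52135 of 55416 genes; the other 3281 held 0.195% of the signal. Mitochondrial genes held 4.33% to 10.7% of reads.

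The 10 members, the related and marker lists and the tests were chosen with earlier results of these data known, and so support nothing by their choice. Genes with a mean of at least 1 were tested with limma 3.58.1 (R 4.3.3) on log2(value + 1), with a trended prior and a model of 4 group means over 12 libraries, two-sided, with Benjamini-Hochberg adjustment at 0.05. A log2 change on this scale understates that of low genes. Named were the 10 members, Trp53cor1, for each related list and comparison up to 4 called genes of largest change (or, where none was called, the 2 of smallest p), and for each member the 3 genes of highest r. Gja5 is named outside this rule, having been singled out after its values were seen, as are the marker, overlapping and adjoining genes. Alternatives were a pseudocount of 0.1, no filter, 1 CPM in 3 libraries, rescaled totals, edgeR 4.0.16 and DESeq2 1.42.0 on recovered reads, the 6 libraries compared, a replicate block, each library left out and 3 distant libraries left out. Removal of a lowess GC trend (span 0.3) was added after seeing the data. With 2 libraries left in a group, limma pooled the spread. On simulated data with known changes in genes with a mean of at least 50, limma found 96% to 99% of 2-fold changes, and 79% for the interaction. Promoter windows came from RefSeq (GRCm38.p6), for 5 of 10 members. The planned comparison of protein sequences was not made, and 1 gene that the rule for named genes picks is not reported here.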

Additional observations from a re-analysis of the deposited data

How the results depend on the processing

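Myocd with PE in both kinds of cells and Gata6 with PE in knockdown cells were called in all 23 alternatives, and no called member changed direction in any. Tbx20 with PE in control cells lost its call with rescaled totals. Members called with PE in knockdown cells were 2, 7 with rescaled totals, 5 without the 3 distant libraries and 2 to 4 with each library left out. With the knockdown in PE they were 0, 1 with DESeq2, 1 with the GC trend removed, 7 without the 3 distant libraries and 0 to 2 with each library left out. Over all genes, the knockdown in PE called 2553, 4664 without the 3 distant libraries and 1673 to 3503 with each library left out. The knockdown in PBS called 997, 534 with the 6 libraries compared, 1859 without the 3 distant libraries and 517 to 1183 with each library left out. The interaction called 12, 124 with DESeq2, 144 without the 3 distant libraries, 33 with the GC trend removed and 4 to 22 with each library left out; it could not be fitted with 6 libraries. The cause of these changes was not tested.

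Rescaled totals shifted the split between higher and lower calls: with PE in control cells from 2742 and 2801 to 1681 and 4289, with PE in knockdown cells from 2918 and 3049 to 1971 and 4441, with the knockdown in PE from 997 and 1556 to 1501 and 1099, and in PBS from 297 and 700 to 481 and 501. Between groups, the deviations of same-numbered libraries had correlations of -0.435 to 0.409. Libraries with different numbers were not compared, so these values do not show whether the replicate numbers pair the libraries. With the replicate block the members called were 2, 2, 0, 0 and 0, as without it, and all genes called 5171, 5708, 2269, 822 and 12. Reads of Gata5 (63 to 135 per library) and Hand1 (85 to 157) limit what could be seen in them.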
